A study of Mus musculus with 9 samples.

Results

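RNA splicing and processing genes were followed in skeletal stem cells of the mouse at rest and after bone transplantation. The genes were taken by symbol: every protein-coding gene of the table, without a transcription factor family entry, whose symbol began with Snrp, Srsf, Hnrnp, Ddx, Dhx, Lsm, Prpf, Sf3, Rbm, Polr, Exosc, Nop, Utp followed by a digit, or Cpsf. This gave 35 genes of the 8329 in the table analysed here. The largest sets were 9 Rbm, 6 Ddx, 5 Hnrnp, 3 Dhx, 3 Snrp and 3 Polr genes. No Srsf, Utp or Cpsf gene was among them. Rbms1 and Rbms3 match the pattern only by letters, since they encode single-stranded nucleic acid binding proteins rather than spliceosome proteins, and they were kept in every count.

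RNA sequencing was carried out on 3 groups of 3 libraries each, all from wild-type C57BL/6J adult mice. Mesenchymal stem cells of the bone marrow (BM-MSCs) and periosteal skeletal stem cells (P-SSCs, from the fibrous layer that covers long bones) were sorted at day 0, and graft P-SSCs were sorted from the periosteum of a femur 3 days after it had been placed under the skin of a recipient mouse. Every group was sorted with the same gate, CD45-Ter119-CD31-CD51+CD200+, and no transgene or deletion was involved. Per the study's methods RNA of 2 mice was combined in some replicates, and replicate 2 of BM-MSC and of P-SSC carry such joint labels. No sham-operated group was analysed here, so the surgery and the subcutaneous site cannot be told apart in the graft.

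A pre-mRNA is cut and joined by the spliceosome, which is built from small nuclear ribonucleoproteins (snRNPs) carrying Sm or LSm protein rings, and which is remodelled at each step by DEAD-box and DEAH-box RNA helicases. Heterogeneous nuclear ribonucleoproteins (hnRNPs) and RBM proteins bind the transcript and influence which exons are kept. Other helicases of the same families work in the nucleolus, where ribosomal RNA is made, modified and trimmed, and the exosome degrades the by-products. Dividing cells are known to need a large supply of these factors.

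Values are FPKM (fragments per kilobase of transcript, scaled to the depth of the library). Sequencing depth recovered from the values was 16890241 to 21315438 fragments a library, of which the 35 genes took 27329 to 57454. At this depth 3 fragments on a transcript of 1000 bases amount to 0.141 to 0.178 FPKM, a limit that covers counting error only. All 35 genes were above 0 in at least 1 library, and 30 passed the filter of 1 FPKM in 3 of the 9 libraries, as did 1948 genes of the table. Rbm15 passed only through the 3 graft libraries and P-SSC replicate 3. Differences are given as log2 fold changes on the log2(FPKM + 1) scale with their standard error (SE), which understates changes of low genes, and were tested by limma with Benjamini-Hochberg adjustment over the 1948 genes. A gene is called higher or lower at an adjusted p under 0.05. With 3 libraries against 3 an exact permutation test of 1 gene cannot give less than p = 0.10.

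P-SSC replicate 3 stood apart from the other P-SSC libraries. Genes whose first 300 nucleotides (nt) held over 70% G and C (309 genes) were higher there by a median of 1.49 on the log2 scale than in the mean of P-SSC 1 and 2, compared to a median of -0.0021 for the other 1638 genes. The graft libraries were also high for these GC-rich genes, by 0.317 to 0.893 relative to the mean of all libraries, while P-SSC 1 and 2 were at -0.612 and -0.864. Of the 30 genes tested, 4 were over 70% GC: Hnrnpdl (75.7%), Hnrnpab (73.0%), Ddx51 (72.7%) and Dhx33 (72.7%). The part of GC content in the results below was not tested beyond the corrected values given beside them.

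The cell labels could be checked only in part. Of the stromal markers only Postn, a periosteal matrix gene, was in the table, at 90.6 to 125 FPKM in BM-MSCs, 391 to 476 in P-SSCs and 782 to 879 in graft P-SSCs. Of 9 blood cell markers in the table, which the sort should remove, the summed level was 1170 to 2827 FPKM in BM-MSCs, 16.6 to 79.5 in P-SSCs and 37.2 to 95.8 in graft P-SSCs. The largest part in BM-MSCs was the haemoglobin gene Hba-a2 at 748, 618 and 2200.5 FPKM, and Lyz2 was at 143, 540 and 608. Mpo was at 292 FPKM in BM-MSC replicate 1 and at 0 in replicates 2 and 3. Ptprc, which encodes CD45, was at most 1.35 FPKM in every library and at 0 in P-SSCs. Markers of blood cells also differed between graft P-SSCs and P-SSCs and are given with that comparison. The part of blood cell RNA in the results below was not tested.

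**Figure D1:**
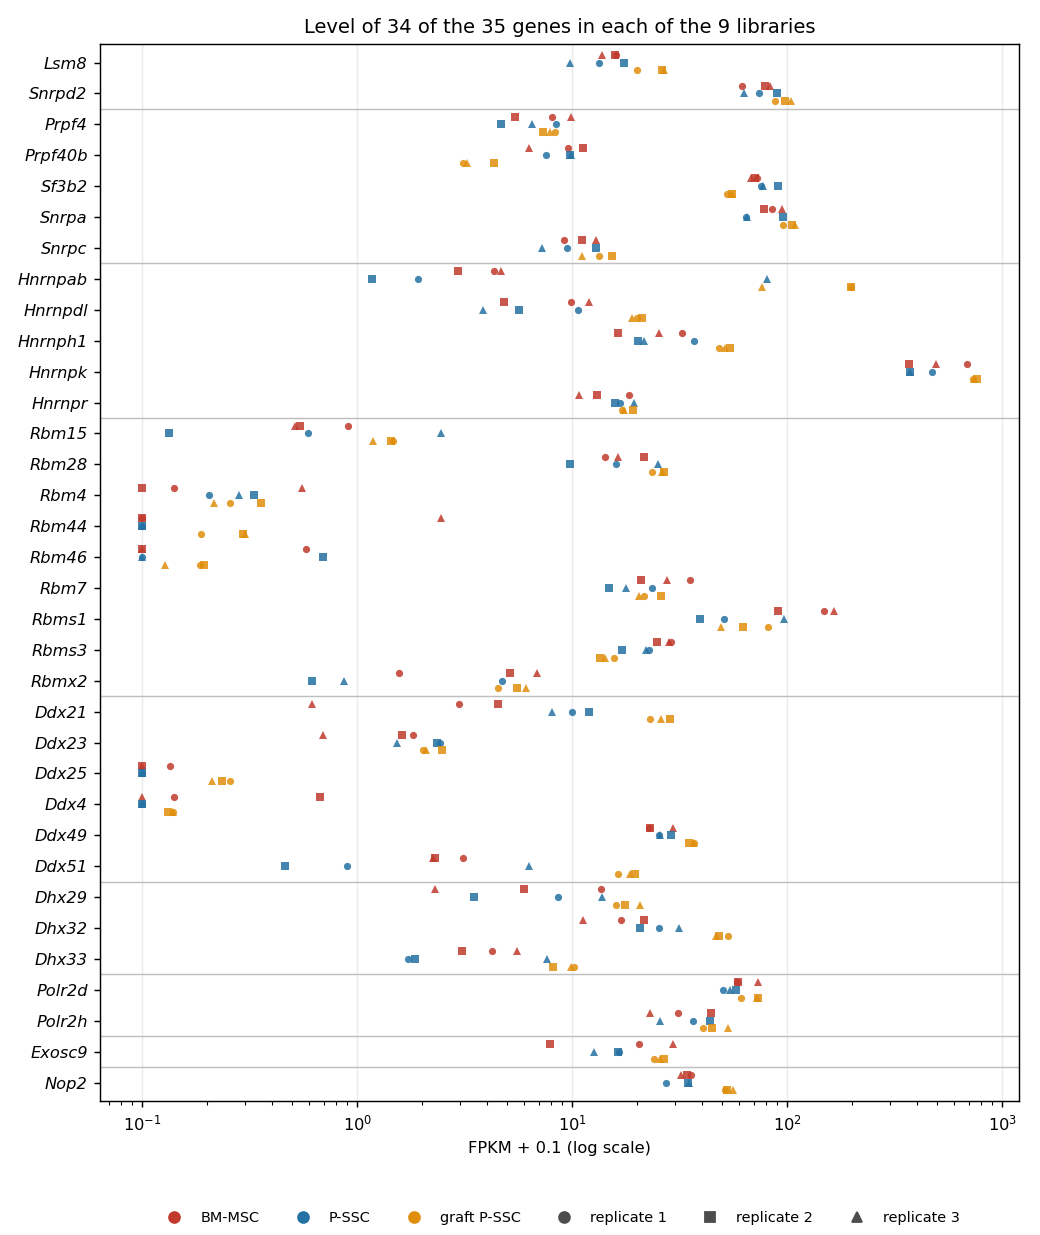
FPKM + 0.1 (x axis, log scale) of 34 of the 35 genes (rows, grouped by role) in each of the 9 libraries, with colour for the group and shape for the replicate. The highest gene was Hnrnpk at 370 to 767 FPKM, and Ddx25, Ddx4, Rbm4 and Rbm46 stayed under 1 FPKM in every library. Rbm44 did so too except in BM-MSC replicate 3, at 2.36 FPKM.

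The level of these genes spanned more than 3 orders of magnitude. Hnrnpk, a poly-C binding hnRNP, was the most abundant with means of 518 ± 161 FPKM in BM-MSCs, 406 ± 55.6 in P-SSCs and 746 ± 19.0 in graft P-SSCs (SD, n = 3 each). Within the snRNP proteins the highest was Snrpa, the A protein of the U1 snRNP, at 85.7 ± 8.03, 74.9 ± 17.9 and 103 ± 7.11 FPKM in the same order, followed by Snrpd2, a subunit of the Sm ring, at 74.5 ± 11.4, 75.5 ± 13.3 and 96.3 ± 8.34. Summed over the 35 genes, FPKM was 1070 to 1475 in BM-MSCs, 1052 to 1137 in P-SSCs and 1750 to 1898 in graft P-SSCs, so that the graft libraries did not overlap the others. Hnrnpk alone made up a large share of each sum. The graft had the highest group mean for 25 of the 30 genes tested (14 with BM-MSC second and 11 with P-SSC second). Over all genes tested the graft was highest in 20.1% with BM-MSC second and in 25.6% with P-SSC second.

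The first comparison asked how P-SSCs and BM-MSCs differ at steady state, before any injury. The splicing and processing genes were largely alike in their calls: Ddx21 was called higher in P-SSCs and Rbms1 lower, and the other 28 were not called. Thus 1 of 30 was higher against 9.8% of all genes tested, and 1 of 30 lower against 14.4%. Every P-SSC library was above every BM-MSC library for 2 genes (Ddx21 and Sf3b2, 12.9% of all genes) and below for 2 (Polr2d and Rbms3, 19.2% of all genes). The median log2 fold change was -0.14 over these genes and -0.06 over all genes.

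Ddx21 (ENSMUSG00000020075, GRCm38 chr10:62580251-62602281, minus strand) encodes a nucleolar DEAD-box helicase that acts in ribosomal RNA transcription and processing. Its level was 2.87, 4.43 and 0.514 FPKM in the BM-MSC libraries, 9.89, 11.8 and 7.95 in P-SSCs and 23.0, 28.5 and 25.8 in graft P-SSCs. The 3 groups did not overlap, and BM-MSC replicate 3 was the lowest library, with 18 fragments. Over BM-MSCs P-SSCs were higher by 1.77 on the log2 scale (SE 0.43, adjusted p = 0.0145). This call was lost in a fit of those 2 groups alone (adjusted p = 0.0717) and kept in the other 19 alternatives.

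Rbms1 (ENSMUSG00000026970, GRCm38 chr2:60750193-60963192, minus strand) was the most abundant of the Rbm-named genes. It stood at 149, 90.5 and 164 FPKM in BM-MSCs and at 50.5, 39.1 and 96.7 in P-SSCs, where replicate 3 reached above the lowest BM-MSC library. Its log2 fold change was -1.16 (SE 0.35, adjusted p = 0.0383). It was -1.53 without P-SSC replicate 3 (adjusted p = 0.00299), and the call was lost in 10 of 20 alternatives, among them without BM-MSC replicate 1 or 3 without P-SSC replicate 1 or 2 and without graft replicate 2, with adjusted p up to 0.128.

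Leaving out P-SSC replicate 3 also added 2 calls in this comparison. Ddx51 was then lower in P-SSCs with a log2 fold change of -1.14 (adjusted p = 0.0144) and Dhx33 with -0.92 (adjusted p = 0.0452), both GC-rich at their 5′ end. Their values in each library are given with the graft.

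For the steady-state pair the abundant genes with the smallest differences were Snrpd2 (0.02, 95% interval -0.40 to 0.43), Nop2 (-0.08, -0.46 to 0.29) and Hnrnph1 (0.08, -0.57 to 0.74) on the log2 scale. The intervals leave room for changes of that size in either direction.

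The second comparison asked what transplantation changed in P-SSCs by day 3. Of the 30 genes 11 were called higher in the graft, compared to 22.6% of all genes, and 2 were lower, compared to 11.5%. The genes that rose included Hnrnpab, Ddx51, Hnrnpdl, Dhx33, Ddx21, Hnrnph1, Dhx32, Hnrnpk, Lsm8 and Nop2, and those that fell were Prpf40b and Sf3b2. Every graft library was above every P-SSC library for 14 of the 30 (31.5% of all genes) and below for 3 (19% of all genes). The median log2 fold change was 0.56, beside a median of 0.26 over all genes tested, so the centre of the whole table was above 0 and directions of small changes depend on the scaling. Leaving out P-SSC replicate 3 gave 13 higher and 2 lower, with Rbm15, Rbm28 and Dhx29 added and Ddx21 lost. Without that library Rbm15 reached 1 FPKM only in the graft, so its added call is no support and 12 of the 13 remain beside it. Markers of dividing cells moved with this comparison: the summed level of 8 proliferation genes was 19.0 to 36.3 FPKM in P-SSCs, 126 to 390 in BM-MSCs and 850 to 903 in the graft, and all 8 rose. Some macrophage and myeloid markers moved with it too, at low levels: of the 7 blood cell markers tested 3 were higher in the graft and none was lower. Lyz2, a lysozyme of myeloid cells and the most abundant of them there, was at 14.2, 71.9 and 51.4 FPKM in P-SSCs and 49.4, 25.5 and 84.0 in the graft and was not called (adjusted p = 0.759), nor was Mpo of neutrophil precursors (adjusted p = 0.659). Csf1r, the receptor of a macrophage growth factor, was at 0.248, 0.407 and 0.835 FPKM in P-SSCs and 6.31, 5.93 and 5.57 in the graft (adjusted p = 0.00431). Adgre1, which encodes F4/80, was at 0 in each P-SSC library and at 2.75, 0.907 and 2.22 FPKM in the graft (adjusted p = 0.0413), and the myeloid transcription factor Spi1 was at 0 to 0.125 and 0.940 to 1.76 FPKM (adjusted p = 0.0447). Csf1r and Adgre1 met the filter only by counting graft libraries, where they were higher than in P-SSCs, so their calls are no support. Spi1 met it through the BM-MSC libraries alone. The part of cell division and of myeloid RNA in the changes below was not tested.

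The split between directions changed with the scaling. With median-of-ratios scaling 4 of the 30 were higher and 3 lower, with quantile normalization likewise 4 and 3, and with libraries rescaled to the same sum 5 and 2. These rescalings used only the genes analysed here, which took 13.8 to 16.8% of each library's fragments. Leaving out 1 graft library at a time left 6, 5 and 6 calls (without graft replicate 1, 2 and 3). Ddx51 was called in all 20 alternatives.

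**Figure D2:**
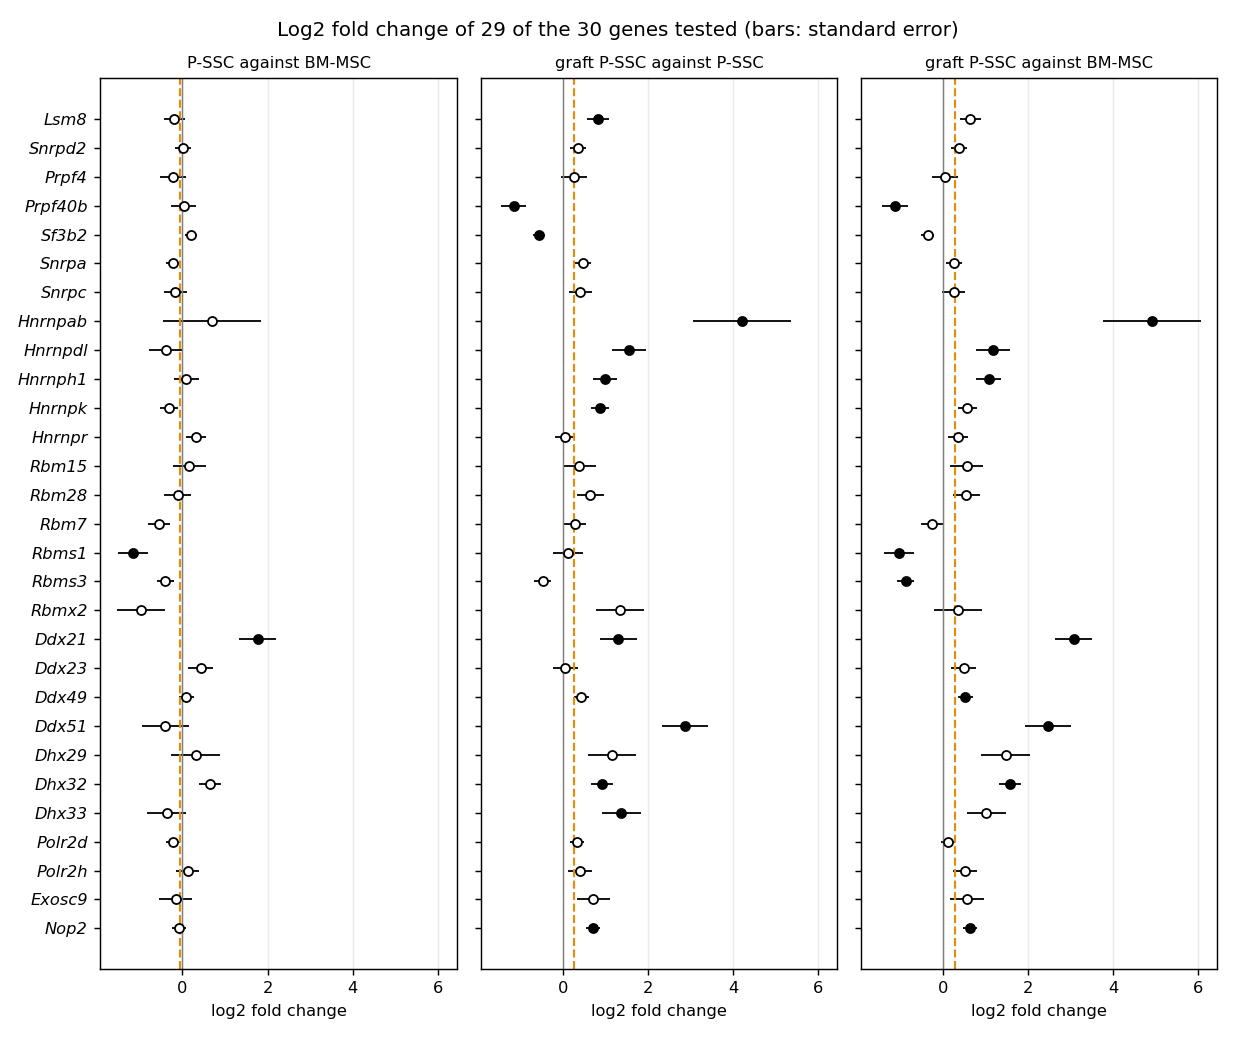
Log2 fold change on the log2(FPKM + 1) scale (x axis) of 29 of the 30 genes tested in each of the 3 comparisons, with bars of 1 standard error. Filled points were called at an adjusted p under 0.05, and the dashed line marks the median of all 1948 genes, which lay at -0.06, 0.26 and 0.28 from left to right.

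Several members are known to act in ribosome production. Ddx51 (ENSMUSG00000029504, GRCm38 chr5:110653451-110660496, plus strand), a helicase of large ribosomal subunit assembly, was at 3.01, 2.21 and 2.16 FPKM in BM-MSCs, 0.798, 0.363 and 6.19 in P-SSCs and 16.2, 19.5 and 18.4 in graft P-SSCs. P-SSC replicate 3 was higher than the other P-SSC libraries but still under the lowest graft library. Graft over P-SSC, its log2 fold change was 2.87 (SE 0.55, adjusted p = 0.0032). It was 3.60 without P-SSC replicate 3 and 2.35 after correction for 5′ GC (adjusted p = 0.000853). Dhx33 (ENSMUSG00000040620, GRCm38 chr11:70984091-71004437, minus strand), a DEAH-box helicase linked to ribosomal DNA transcription, was at 4.13, 2.98 and 5.45 FPKM in BM-MSCs, 1.62, 1.75 and 7.54 in P-SSCs and 10.1, 8.08 and 9.74 in the graft. Its log2 fold change was 1.38 (SE 0.46, adjusted p = 0.0429). The correction for 5′ GC brought it to 0.85 (adjusted p = 0.0589), and leaving out P-SSC replicate 3 brought it to 1.93 (adjusted p = 0.000588). The call was lost without any other single library (adjusted p up to 0.142), and with median-of-ratios scaling and quantile normalization (adjusted p up to 0.0677).

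Nop2 (ENSMUSG00000038279, GRCm38 chr6:125131909-125144753, plus strand) encodes a methyltransferase of ribosomal RNA. It was at 35.6, 34.2 and 32 FPKM in BM-MSCs, 27.2, 34.6 and 34.8 in P-SSCs and 51.2, 52.5 and 55.6 in the graft. The steady-state groups overlapped each other and all graft libraries were above both. Nop2 rose over P-SSCs by 0.71 on the log2 scale (SE 0.17, adjusted p = 0.00964), a call that was lost under each of the 3 rescalings (adjusted p up to 0.175). Ddx21 rose further by 1.31 on the log2 scale (SE 0.43, adjusted p = 0.0421), a call kept in 8 of 20 alternatives and lost without BM-MSC replicate 1 and without any single P-SSC or graft library (adjusted p up to 0.131) and under each of the 3 rescalings, where it was lowest with quantile normalization (0.87, adjusted p = 0.206). Rbm28, a nucleolar RNA-binding protein, was at 15.9, 9.68 and 24.9 FPKM in P-SSCs and 23.4, 26.5 and 26.0 in the graft, with a log2 fold change of 0.65 (adjusted p = 0.144), and 0.97 without P-SSC replicate 3 (adjusted p = 0.0134). Ddx49, a helicase whose yeast relative acts in ribosome assembly, was at 25.3, 28.7 and 25.6 FPKM in P-SSCs and 36.7, 34.8 and 36.9 in the graft (log2 fold change 0.43, adjusted p = 0.092). Ddx49 shares 29.8% of its exon bases with Homer3 on the opposite strand, and whether the counting used strand is not given in the sources used here.

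Promoter windows are shown for the rising Ddx51, Dhx33, Nop2 and Hnrnpab and for Prpf40b, which fell, because the windows carry different motifs although 4 of the genes moved the same way. Each runs 5′ to 3′ on the strand of the gene, from 250 bases before to 50 after the RefSeq start (GRCm38.p6). Capitals mark CACGTG, an E box as bound by Myc family factors, and CCGGAA, the core of ETS factor sites, on either strand. The windows are chr5:110653201-110653500 for Ddx51, chr11:71004383-71004682 for Dhx33, chr6:125131633-125131932 for Nop2, chr11:51606832-51607131 for Hnrnpab and chr15:99294991-99295290 for Prpf40b, the first of the 2 windows listed for that gene.
Ddx51: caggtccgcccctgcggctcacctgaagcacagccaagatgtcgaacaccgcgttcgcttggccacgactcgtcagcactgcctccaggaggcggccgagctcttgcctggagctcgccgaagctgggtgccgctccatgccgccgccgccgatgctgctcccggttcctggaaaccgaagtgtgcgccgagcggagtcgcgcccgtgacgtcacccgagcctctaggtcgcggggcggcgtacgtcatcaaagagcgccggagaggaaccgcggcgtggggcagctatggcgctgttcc
Dhx33: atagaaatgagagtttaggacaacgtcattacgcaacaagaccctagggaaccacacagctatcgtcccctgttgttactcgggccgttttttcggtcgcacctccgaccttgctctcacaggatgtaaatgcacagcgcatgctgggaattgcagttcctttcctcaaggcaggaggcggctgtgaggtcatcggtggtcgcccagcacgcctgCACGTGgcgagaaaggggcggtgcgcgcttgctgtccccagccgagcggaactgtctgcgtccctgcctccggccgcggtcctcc
Nop2: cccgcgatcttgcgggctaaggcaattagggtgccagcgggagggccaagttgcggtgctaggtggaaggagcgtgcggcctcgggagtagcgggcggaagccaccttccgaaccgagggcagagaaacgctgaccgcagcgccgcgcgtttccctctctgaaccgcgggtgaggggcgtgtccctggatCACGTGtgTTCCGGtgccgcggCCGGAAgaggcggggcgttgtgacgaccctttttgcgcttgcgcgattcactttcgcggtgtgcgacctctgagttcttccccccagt
Hnrnpab: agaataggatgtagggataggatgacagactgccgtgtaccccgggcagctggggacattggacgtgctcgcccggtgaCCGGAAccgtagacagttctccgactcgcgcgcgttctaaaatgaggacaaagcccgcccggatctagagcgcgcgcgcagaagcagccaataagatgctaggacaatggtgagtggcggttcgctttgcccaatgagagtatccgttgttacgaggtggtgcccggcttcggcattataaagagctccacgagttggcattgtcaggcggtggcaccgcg
Prpf40b: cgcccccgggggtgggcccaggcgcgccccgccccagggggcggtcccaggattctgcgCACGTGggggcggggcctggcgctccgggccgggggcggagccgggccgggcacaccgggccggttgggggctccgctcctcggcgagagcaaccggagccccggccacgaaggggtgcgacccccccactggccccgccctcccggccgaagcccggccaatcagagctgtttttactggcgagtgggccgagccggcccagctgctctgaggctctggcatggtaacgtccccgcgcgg
Ddx51 held neither motif. Dhx33 held an E box beginning 35 bases before the start, Nop2 an E box at 60 and CCGGAA at 52 and 38 bases, Hnrnpab CCGGAA at 171 bases, and Prpf40b an E box at 191 bases. GC content of these windows was 69% for Ddx51, 59.7% for Dhx33, 66% for Nop2, 58.3% for Hnrnpab and 78.3% for Prpf40b.

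Promoters of 30 of the 35 genes were matched in RefSeq, 26 of them of genes tested. An E box was in 5 of those 26 (19.2%), namely Dhx33, Nop2, Polr2h, Prpf40b and Snrpa, compared to 10.9% of 1440 tested genes with a promoter and 8.09% of all 27025. CCGGAA was in 10 of the 26 (38.5%), compared to 34.9% of tested genes and 16.7% of all. Of the 10 risen genes with a promoter window, 2 held the E box and 2 held CCGGAA. These counts describe letters in a window and are not evidence of binding.

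All 5 hnRNPs had positive log2 fold changes in the graft and 4 rose, beside 22.6% of all genes called higher, although the value of Hnrnpr was negative under each of the 3 rescalings. The calls left were Hnrnpab and Hnrnpdl with median-of-ratios scaling and with the same sum in each library, and Hnrnpab and Hnrnpk with quantile normalization. Hnrnpab (ENSMUSG00000020358, GRCm38 chr11:51600100-51606847, minus strand), an A/B-type hnRNP, was at 4.21, 2.85 and 4.55 FPKM in BM-MSCs, 1.83, 1.07 and 80.3 in P-SSCs and 197, 198 and 76.2 in the graft. P-SSC replicate 3 was above the lowest graft library, while P-SSC replicates 1 and 2 were below every BM-MSC library. In fragments these P-SSC values were 70, 37 and 2960, and those of the graft 6760, 8172 and 2656. The log2 fold change over P-SSCs was 4.21 (SE 1.16, adjusted p = 0.0193). It was 5.90 without P-SSC replicate 3 (SE 0.41, adjusted p = 5.81e-06) and 3.68 after correction for 5′ GC (adjusted p = 0.00983). The call was lost without P-SSC replicate 1 or 2 and without graft replicate 1 or 2, with adjusted p up to 0.0763, in a fit of the 2 groups alone (adjusted p = 0.0702) and with no filter (adjusted p = 0.0516). The 3′ end of Hnrnpab overlaps Phykpl on the opposite strand over 29.1% of its exon bases.

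Hnrnpdl (ENSMUSG00000029328, GRCm38 chr5:100033577-100039664, minus strand), a relative of the AU-rich element binding protein Hnrnpd, was at 9.79, 4.74 and 11.8 FPKM in BM-MSCs, 10.5, 5.53 and 3.77 in P-SSCs and 19.8, 21.0 and 18.9 in the graft. The graft libraries lay above all others, and unlike the other GC-rich members P-SSC replicate 3 was the lowest of its group. Hnrnpdl rose over P-SSCs by 1.55 on the log2 scale (SE 0.40, adjusted p = 0.0137), and 1.01 after the GC correction (adjusted p = 0.193), where the call was lost. It was also lost without graft replicate 2 and under quantile normalization. Hnrnph1 (ENSMUSG00000007850, GRCm38 chr11:50376990-50386528, plus strand), which binds runs of G, was at 36.7, 20.1 and 21.6 FPKM in P-SSCs and 48.3, 54.1 and 51.1 in the graft (log2 fold change 0.99, SE 0.29, adjusted p = 0.0265). It was not called without P-SSC replicate 2 or any 1 graft library, or under a rescaling, with adjusted p up to 0.137.

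Hnrnpk (ENSMUSG00000021546, GRCm38 chr13:58391142-58403343, minus strand) was at 690, 370 and 494 FPKM in BM-MSCs, 470, 374 and 374 in P-SSCs and 729, 767 and 743 in the graft. The BM-MSC libraries were widely spread and overlapped P-SSC, whereas the graft libraries lay close together above both. Its log2 fold change over P-SSCs was 0.88 (SE 0.21, adjusted p = 0.0107), lost under median-of-ratios and same-sum rescaling (up to 0.0743). Hnrnpr was the least changed hnRNP at 16.5, 15.8 and 19.3 FPKM in P-SSCs and 16.9, 19.2 and 17.3 in the graft (0.05, 95% interval -0.49 to 0.58).

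**Figure D3:**
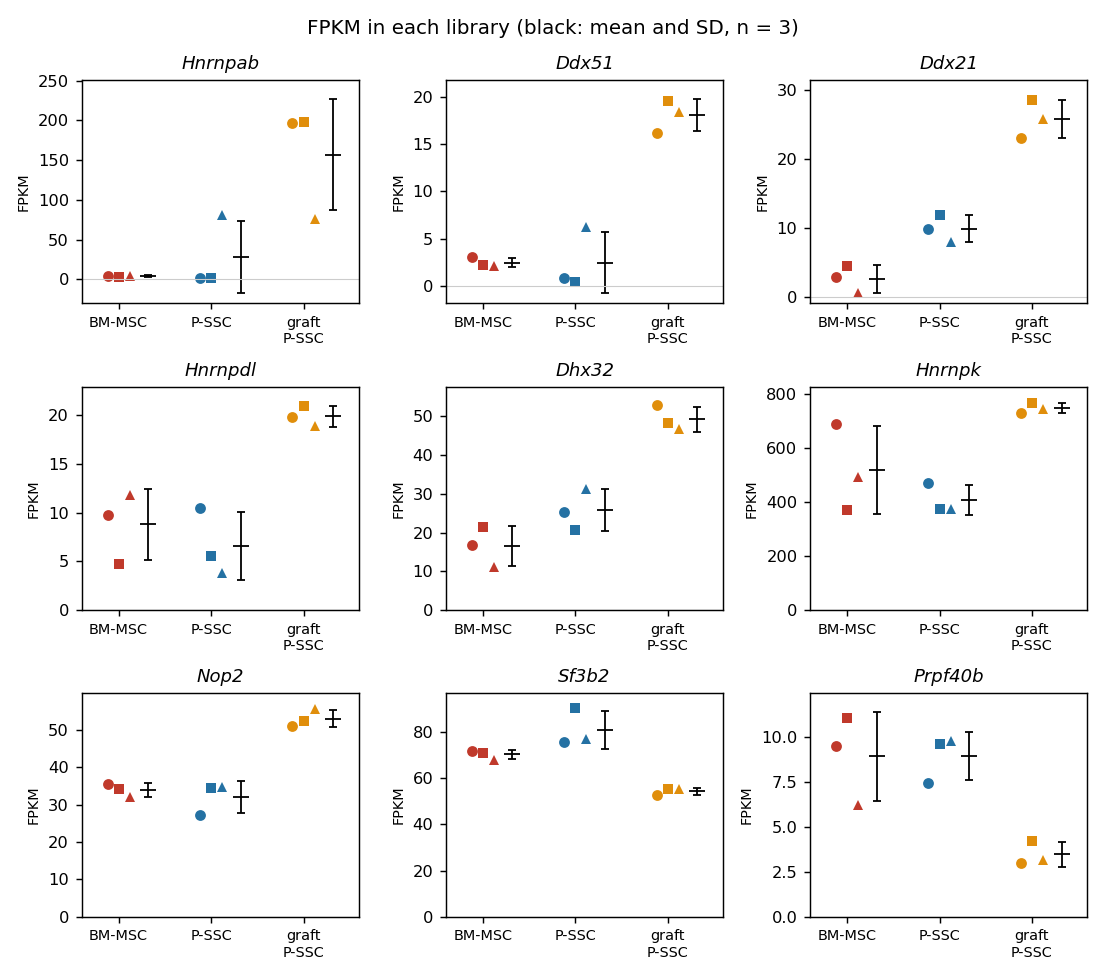
FPKM (y axis, from 0 or below where the SD bar needs it) of 9 genes in each library, by group on the x axis, with the mean and SD of 3 libraries in black. Ddx21 climbs from BM-MSC through P-SSC to graft P-SSC, Sf3b2 and Prpf40b are lowest in the graft, and P-SSC replicate 3 (blue triangle, 80.3 FPKM) stands within the graft range for Hnrnpab.

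Of the 5 genes for snRNP-specific, Prpf and Sf3 proteins, which form the core of the spliceosome, none was called higher and 2 fell, beside 22.6% and 11.5% of all genes, with a median log2 fold change of 0.26, as over all genes. Sf3b2 (ENSMUSG00000024853, GRCm38 chr19:5273923-5295455, minus strand), a subunit of the SF3b complex that recognises the branch point, was at 72.0, 70.9 and 67.9 FPKM in BM-MSCs, 75.5, 90.3 and 77.0 in P-SSCs and 52.6, 55.2 and 55.3 in the graft. The 3 groups did not overlap. Graft over P-SSC, its log2 fold change was -0.56 (SE 0.14, adjusted p = 0.0139), and -0.40 after the GC correction (adjusted p = 0.064). The call was also lost without graft replicate 1, 2 or 3.

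Prpf40b (ENSMUSG00000023007, GRCm38 chr15:99295087-99317018, plus strand), a relative of the U1-associated factor Prp40, was at 9.5, 11.1 and 6.22 FPKM in BM-MSCs, 7.43, 9.63 and 9.77 in P-SSCs and 3.01, 4.23 and 3.14 in the graft. Every graft library was below every library of the other groups. The log2 fold change over P-SSCs was -1.16 (SE 0.30, adjusted p = 0.0143), lost without graft replicate 1 or 3 (up to 0.0631). Snrpa at 0.48 (adjusted p = 0.0748), Snrpc of U1 at 0.41 (adjusted p = 0.285), Prpf4 of U4/U6 at 0.26 (adjusted p = 0.549) and Ddx23, the U5 helicase, at 0.06 (adjusted p = 0.894) were not called, and under median-of-ratios scaling the values of Prpf4 and Ddx23 turned negative.

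In the rings that carry the snRNAs, Lsm8 (ENSMUSG00000044155, GRCm38 chr6:18848579-18855751, plus strand), of the U6 ring, was at 15.9, 15.8 and 13.6 FPKM in BM-MSCs, 13.2, 17.4 and 9.67 in P-SSCs and 19.9, 26.0 and 26.8 in the graft. The graft libraries were above the rest. The log2 fold change over P-SSCs was 0.83 (SE 0.25, adjusted p = 0.0298), and after the GC correction 0.53 (adjusted p = 0.243). Without P-SSC replicate 1 or graft replicate 2 or 3, in a fit of the 2 groups alone and under each rescaling the call was lost as well, with adjusted p up to 0.366. Snrpd2 was at 73.9, 89.6 and 63.0 FPKM in P-SSCs and 87.5, 97.5 and 104 in the graft, where the groups overlapped (0.36, adjusted p = 0.167).

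Among the remaining helicases Dhx32 (ENSMUSG00000030986, GRCm38 chr7:133720942-133782726, minus strand) was at 16.7, 21.5 and 11.2 FPKM in BM-MSCs, 25.3, 20.6 and 31.3 in P-SSCs and 52.9, 48.2 and 46.8 in the graft. All graft libraries were above the others, and the log2 fold change over P-SSCs was 0.93 (SE 0.26, adjusted p = 0.0203). This call was lost without P-SSC replicate 1 or 2 or any 1 graft library, and under each rescaling, with adjusted p up to 0.161. Dhx29, which helps the small ribosomal subunit scan structured leaders, was at 8.46, 3.39 and 13.7 FPKM in P-SSCs and 15.9, 17.5 and 20.6 in the graft (1.16, adjusted p = 0.148). Without P-SSC replicate 3 it was 1.55 (adjusted p = 0.048).

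Among the polymerase subunits Polr2d of RNA polymerase II was at 50.5, 57.7 and 54.3 FPKM in P-SSCs and 60.7, 73.3 and 72.1 in the graft (0.34, adjusted p = 0.143). Polr2h, a subunit shared among the nuclear polymerases, was at 36.3, 43.7 and 25.6 FPKM in P-SSCs and 40.6, 44.5 and 52.8 in the graft (0.40, adjusted p = 0.299).

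For RNA turnover, Exosc9 of the exosome ring was at 20.3, 7.81 and 29.2 FPKM in BM-MSCs, 16.4, 16.2 and 12.5 in P-SSCs and 23.8, 26.5 and 25.5 in the graft (0.72 over P-SSC, adjusted p = 0.192). The graft and P-SSC libraries did not overlap although the test was not passed. Exosc9 shares 10.8% of its exon bases with Ccna2 on the opposite strand, and the part of this overlap in its level was not tested. Rbm7, which guides the nuclear exosome to its targets, was at 23.5, 14.7 and 17.8 FPKM in P-SSCs and 21.5, 25.9 and 20.4 in the graft (0.28, 95% interval -0.30 to 0.86). Of the 6 Rbm-named genes tested none was called in this comparison, but for Rbms3 this depended on the scaling. It was at 22.6, 17 and 21.9 FPKM in P-SSCs and 15.6, 13.4 and 14.2 in the graft, without overlap, and its log2 fold change of -0.48 (adjusted p = 0.0938) became -0.78 with median-of-ratios scaling (adjusted p = 0.0128) and -0.92 with quantile normalization (adjusted p = 0.00807), both called lower. It was not called with the same sum in each library, nor after the GC correction (-0.32, adjusted p = 0.273). Rbms1 was the least changed of the abundant ones at 81.3, 62.2 and 49.2 FPKM in the graft (0.12, 95% interval -0.67 to 0.92), so its lower level in P-SSCs than in BM-MSCs was still seen in the graft. Rbmx2 was at 4.60, 0.517 and 0.773 FPKM in P-SSCs and 4.41, 5.43 and 5.98 in the graft (1.34, adjusted p = 0.0981), and P-SSC replicate 1 lay within the graft range.

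The third comparison set the graft P-SSCs beside BM-MSCs at rest and shares the graft libraries with the second. Of the 30 genes 9 were higher, compared to 25.7% of all genes, and 3 were lower, compared to 16.2%. Every graft library was above every BM-MSC library for 18 (40.5% of all genes) and below for 4 (24% of all genes), and the median log2 fold change was 0.53 beside 0.28 over all genes. The higher genes included Hnrnpab, Ddx21, Ddx51, Dhx32, Hnrnpdl, Hnrnph1, Nop2 and Ddx49, and the lower ones were Prpf40b, Rbms1 and Rbms3. The split was 5 higher and 4 lower with median-of-ratios scaling, and 4 and 4 with quantile normalization. Leaving out graft replicate 2 or 3 left 6 calls each.

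Ddx21 was 3.07 higher in the graft than in BM-MSCs on the log2 scale (SE 0.43, adjusted p = 0.000459), and Dhx32 1.57 (SE 0.26, adjusted p = 0.00112). Hnrnpab was higher by 4.91 (SE 1.16, adjusted p = 0.00825), a value that does not involve P-SSC replicate 3 except through the shared spread, and Ddx51 by 2.47 (SE 0.55, adjusted p = 0.0063). After the GC correction these were 4.18 and 1.75, both still called. Rbms3 (ENSMUSG00000039607, GRCm38 chr9:116572746-117629913, minus strand), a paralogue of Rbms1, was at 28.7, 24.8 and 28.1 FPKM in BM-MSCs, above its P-SSC and graft libraries. The groups did not overlap and descended from BM-MSC through P-SSC to the graft. The log2 fold change of graft over BM-MSC was -0.87 (SE 0.20, adjusted p = 0.00703), and the calls on Ddx21, Ddx51, Dhx32, Hnrnpab and Rbms3 were kept in all 20 alternatives. The other calls described here were each lost in some: Prpf40b (-1.13, adjusted p = 0.0138) without graft replicate 1 or 3, Hnrnph1 (1.08, adjusted p = 0.0158) without BM-MSC replicate 2 or graft replicate 2 and with quantile normalization (0.81, adjusted p = 0.0538), Nop2 (0.63, adjusted p = 0.0145) without graft replicate 2 or 3, with median-of-ratios scaling (0.39, adjusted p = 0.146) and with quantile normalization (0.35, adjusted p = 0.164), and Ddx49, Hnrnpdl and Rbms1 in 7 to 11 of the 20. Leaving out BM-MSC replicate 1 or 2 or any 1 graft library lost Ddx49 (0.52, adjusted p = 0.0414, up to 0.124) and Hnrnpdl (1.17, adjusted p = 0.0383, up to 0.122), Ddx49 also without P-SSC replicate 1. Both were lost under each rescaling too, with adjusted p up to 0.46 for Ddx49 (log2 fold change 0.20) and 0.158 for Hnrnpdl, and after the GC correction Hnrnpdl was at 0.33 (adjusted p = 0.655). Rbms1 (-1.04, adjusted p = 0.0394, up to 0.128) was lost without BM-MSC replicate 1 or 3, P-SSC replicate 1 or graft replicate 2 or 3. The smallest differences among abundant genes were Polr2d (0.11, 95% interval -0.25 to 0.48), Snrpc (0.25, -0.37 to 0.87) and Snrpa (0.26, -0.15 to 0.68).

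**Figure D4:**
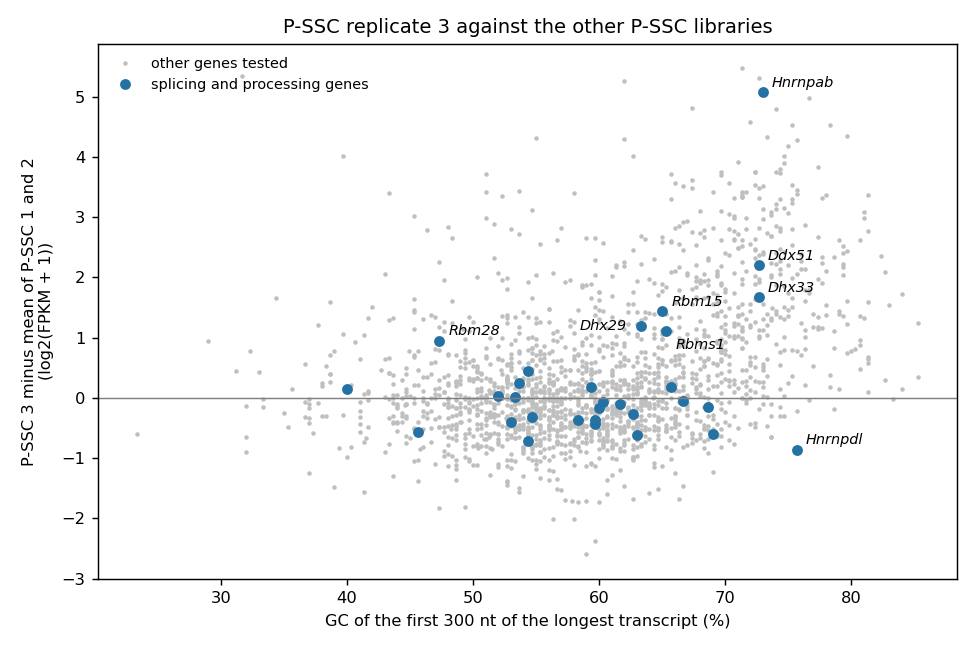
Difference between P-SSC replicate 3 and the mean of P-SSC 1 and 2 on the log2(FPKM + 1) scale (y axis) against the GC content of the first 300 nt of the longest annotated transcript (x axis, %), for the genes tested (grey) and the 30 splicing and processing genes (blue). Hnrnpab, Ddx51 and Dhx33 lie high at 72.7 to 73.0% GC, Hnrnpdl lies at -0.86 at 75.7%, and most of the others lie near 0.

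The fold changes of the GC-rich members were large: their median was 2.21 for the 4 genes over 70% GC and 0.42 for the 26 others, beside 0.85 and 0.17 for all genes split the same way. P-SSC replicate 3 was also higher than the mean of the other P-SSC libraries for Rbm15 (by 1.44 on the log2 scale at 65% GC), Dhx29 (1.19 at 63.3%), Rbms1 (1.10 at 65.3%) and Rbm28 (0.95 at 47.3%). With the correction for 5′ GC, chosen after seeing the data, 11 of the 30 were higher and 1 lower in the graft than in P-SSCs, of which Ddx49, Snrpa and Snrpd2 were additions and Hnrnpdl, Dhx33, Lsm8 and Sf3b2 were lost.

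The 5 genes that did not pass the filter are known mostly from the germ line. Ddx4 (the Vasa helicase) had 2, 31 and 0 fragments in BM-MSCs, 0 in each P-SSC library and 2 in each graft library. Ddx25, a testis helicase, had 4, 0 and 0 fragments in BM-MSCs, 0 in P-SSCs and 19, 20 and 14 in the graft, that is up to 0.155 FPKM. Rbm44 had 83 fragments in BM-MSC replicate 3, 0 in the other BM-MSC and all P-SSC libraries, and 3, 8 and 7 in the graft. Rbm46 had 16 fragments in BM-MSC replicate 1, 21 in P-SSC replicate 2 and 3, 4 and 1 in the graft, and 0 elsewhere. Thus each of these 4 transcripts was found in 1 or 2 of the 6 steady-state libraries, and in all graft libraries in small numbers. Rbm4, a splicing regulator, had 0 to 12 fragments in every library, and 60.5% of its exon bases are shared with an overlapping gene on the same strand, so its level is uncertain.

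Genes of the same pathways with other symbols were examined in the same fit. Of 11 spliceosome genes and splicing regulators tested 5 rose in the graft over P-SSCs and none fell, beside 22.6% and 11.5% of all genes, and the median log2 fold change was 1.06, beside 0.26 over all genes. They were Rbfox2, a regulator of alternative exons (1.98, adjusted p = 0.00201), Thoc3 of the mRNA export complex THO (1.73, adjusted p = 0.000578), Luc7l2 (1.39, adjusted p = 0.0313), the SR protein kinase Srpk1 (1.14, adjusted p = 0.0313) and Ppil1 (1.06, adjusted p = 0.000892). Luc7l2 was at 0.535, 0.0638 and 2.32 FPKM in P-SSCs and 4.72, 3.84 and 2.52 in the graft. It met the filter only by counting graft libraries, so its call and its place among the 5 are no support. Of 11 ribosome biogenesis genes 6 rose and none fell, beside the same shares of all genes, with a median of 1.09, led by Noc2l (3.67, adjusted p = 0.00775) and Wdr75 (2.08, adjusted p = 0.000343). Noc2l was at 0.705, 0.483 and 16.0 FPKM in P-SSCs and 51.3, 51.3 and 31.6 in the graft, so that P-SSC replicate 3 again stood apart. Both 3′ end processing genes tested, Cstf3 (1.94, adjusted p = 0.00276) and Pabpc1 (1.93, adjusted p = 5.59e-05), rose. Xrn2, a nuclear exonuclease, rose (0.86, adjusted p = 0.0103), and Xrn1, its cytoplasmic relative, was not called (-0.69, adjusted p = 0.123). The polymerase III factor Gtf3a rose (2.35, adjusted p = 0.0441), though at 0.576, 1.02 and 18.1 FPKM in P-SSCs and 19.6, 22.1 and 15.8 in the graft its libraries overlapped, and Taf1c of polymerase I was not called (-0.30, adjusted p = 0.507).

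**Figure D5:**
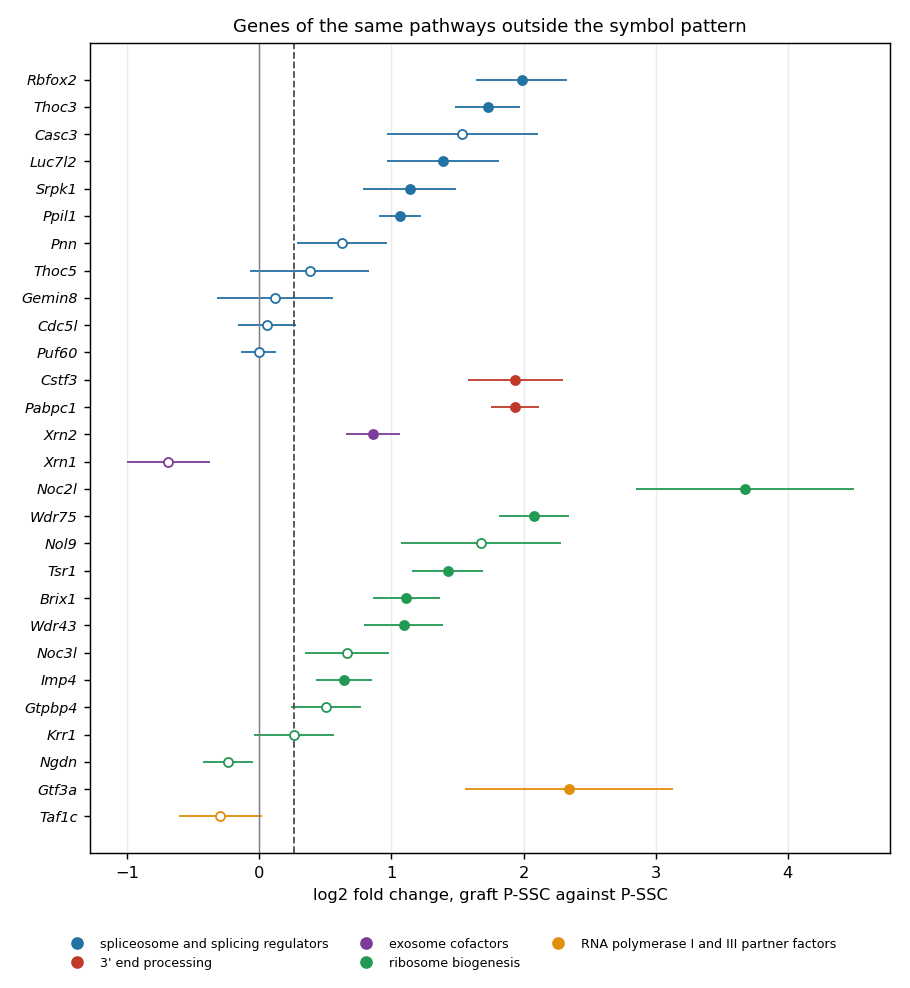
Log2 fold change of graft P-SSC over P-SSC (x axis, log2(FPKM + 1) scale, bars of 1 standard error) for 28 genes of the same pathways outside the symbol pattern, coloured by list. Filled points were called, and the dashed line is the median of all genes tested at 0.26. None of these genes was called lower.

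Between P-SSCs and BM-MSCs at rest 9.8% of all genes were called higher and 14.4% lower. Among the 11 splicing genes only Thoc3 was lower in P-SSCs (-0.97, adjusted p = 0.0155), and among the 11 ribosome biogenesis genes only Tsr1 was higher (0.95, adjusted p = 0.0276). No gene of the 3′ end, exonuclease or polymerase partner lists was called.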

How the data were processed

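RNA sequencing of sorted BM-MSCs, P-SSCs and graft P-SSCs (3 libraries each) was analysed. The authors selected poly(A) RNA and, per the submitters' processing notes, used CASAVA, fastp, STAR 2.6.1d, featureCounts 1.5.0-p3 and the GRCm38 build, and deposited FPKM values per gene. Strand use and treatment of reads with several matches are not given in the sources used here. The methods name DESeq2 of the authors, which needs counts and was not run on the FPKM. Each value was a whole number of fragments (tolerance 1e-06 of a fragment, all 3609 genes above 0), divided by a length that equals the whole-number mean of a gene's annotated transcripts for 90.9% of genes and 32 of the 35 studied, so that levels between genes depend on that length. The genes analysed took 13.8 to 16.8% of each library's fragments.

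From the FPKM, log2(FPKM + 1) was fitted with limma 3.58.1 (R 4.3.3) in 1 fit of all 9 libraries with a variance trend, for genes of at least 1 FPKM in 3 libraries. Tests were two-sided, with Benjamini-Hochberg adjustment over the 1948 genes. GC was taken from the first 300 nt of the longest transcript (GENCODE vM21), and a loess correction with span 0.4 and limma voom on recovered fragments were added after seeing the data. The methods state no pairing, so replicate numbers were not used to pair samples in the main fit. Per the study's methods the mice differed between replicates, and whether groups shared mice is not stated. Genes were named by rule: up to 2 largest called changes per role and direction, the highest mean per role, and the 3 smallest changes among genes of at least 10 FPKM per comparison; the rest were chosen after their values were seen. The members and lists were chosen with earlier results of these data known. Promoters came from RefSeq. The copy pair Ddx3x and Ddx3y and protein sequences were not analysed here, and 1 member and 1 context gene, counted in the totals, are not reported here by name.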

Additional observations from a re-analysis of the deposited data

How the results depend on the processing

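Each comparison was refitted in 20 alternatives, 2 of them (the GC correction and voom on recovered fragments) chosen after seeing the data. No direction of a called splicing and processing gene reversed, and the number of all genes called stayed within 1.5 times that reported. Calls on single genes outside the symbol pattern were not compared in this way. Between P-SSC and BM-MSC the 2 called splicing and processing genes became 1 with no filter, with quantile normalization, with the same sum in each library and with no trend, and 0 in a fit of the 2 groups alone. Leaving out 1 library gave 1 to 4 calls there, 5 to 15 for graft P-SSC against P-SSC (13 reported) and 6 to 17 for graft P-SSC against BM-MSC (12 reported). For graft P-SSC against P-SSC median-of-ratios scaling, quantile normalization and the same sum in each library gave 7 calls each. The cause was not tested. A replicate block gave 441, 621 and 755 genes called and 2, 13 and 11 of the members in the order above. Deviations of same-numbered libraries correlated at -0.43 to 0.13. These values, from 3 libraries a group, cannot decide whether same-numbered samples were paired. With only the 250 bases before the start, 20% of all 30 matched members, tested or not, held the E box (26.7% with the whole window). Beside this stood 8.82% of tested genes and 6.86% of all. CCGGAA was in 33.3% of them (36.7%), beside 27.8% of tested genes and 13.6% of all. With 3 libraries a group, differences smaller than the intervals given could not be detected.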

Other observations

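The spread between replicates differed among the groups. Over members with a mean of at least 5 FPKM the median coefficient of variation was 26.1% in BM-MSCs (23 genes), 23.9% in P-SSCs (25 genes) and 8.66% in graft P-SSCs (27 genes). Over all genes tested with the same minimum it was 23.9%, 30.2% and 7.82%. The graft libraries were therefore the most alike for these genes and for the table as a whole, and the shared estimate of spread in the fit averages over groups that differ in this way. Hnrnpab had the largest spread of the members in P-SSCs, at 164%.

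Interferon response genes were examined as context. Of 8 tested 3 were called higher in graft P-SSCs than in P-SSCs and none lower, beside 22.6% and 11.5% of all genes. Oas1a rose by 2.71 and Zbp1 by 1.94 on the log2 scale. The third, Oas2, passed the filter only through the graft, at 4.41, 2.79 and 2.30 FPKM, and so had to differ. Between P-SSCs and BM-MSCs Mx2 was higher by 1.80, and among the lower genes was Isg20 at -1.24.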
